A study of Mus musculus with 4 samples.

Results

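Inhibitors of cyclin-dependent kinases (CDKs) were followed across the cells of aged adipose tissue. The members were chosen by symbol, as the features named Cdkn2a, Cdkn2b, Cdkn2c, Cdkn2d, Cdkn1a, Cdkn1b and Cdkn1c in the deposited gene tables, which gave 7 of 31054 features. All 7 were detected, so every member is described. Cells were taken from the stromal vascular fraction (SVF) of gonadal white adipose tissue (gWAT) of male mice aged 18 months. Every group had the genotype p16-CreERT2/R26-LSL-tdTomato and received tamoxifen. In these mice the p16 promoter drives a tamoxifen-dependent Cre recombinase, which switches on the red fluorescent protein tdTomato by removing a stop cassette, so Tom+ cells carry a record of promoter activity at the time of tamoxifen and need not use the promoter at collection. After staining for CD31 and CD45, a pan-leukocyte protein, CD45- and CD45+ cells were each sorted into Tom+ and Tom-, and the 4 sorts were captured with the 10x Chromium 3' chemistry. The sample labels name all 4 sorts, but the protocol text lists CD45- Tom- in the place of CD45+ Tom-, so the label of the library called CD45+ Tom- here is less sure than the others. Each sort was 1 library and the number of animals pooled in it is not given in the sources used here, so no test between groups was possible, all comparisons are between libraries, and all intervals (95%) cover counting error only.

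After filtering, 3886 cells of the CD45- Tom+, 3674 of the CD45- Tom-, 1927 of the CD45+ Tom+ and 4391 of the CD45+ Tom- library remained, and further values are listed in this order. Their median depth was 18331 to 19502 unique molecular identifiers (UMIs, each standing for a captured transcript) per cell. After thinning each cell to 5000 UMIs, tdTomato was detected in 82.4%, 7.91%, 81.5% and 9.43% of cells, so the Tom labels held for the transcript. The CD45 labels did not hold, since macrophage-like cells made up 20.8% and 16.4% of the libraries labelled CD45- and 21.2% and 17.5% of those labelled CD45+. The sorts differed instead by Tom: adipose progenitor cell-like (APC-like) cells made up 6.77%, 41.5%, 5.4% and 39.1% of cells, and plasma cell-like cells 23.6%, 1.12%, 23.4% and 1.57%. The Tom- libraries shared 4394 barcodes with each other, and the other pairs shared 26 to 1134. In shared pairs the smaller copy held a median of 1.06% to 6.96% of the UMIs of the larger. Of the cells kept, 15.5%, 38.6%, 11.5% and 29.6% had a barcode that was also deposited in another library, and these cells were deeper than the rest (median 50236 against 15601, 30588 against 12998, 54902 against 15307 and 34733 against 14485 UMIs). Results that moved without these cells are given both ways.

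CDK inhibitors stop the cell cycle in G1, before DNA is copied. The INK4 family (Cdkn2a to Cdkn2d) binds CDK4 and CDK6 and keeps them from cyclin D, whereas the Cip/Kip family (Cdkn1a to Cdkn1c) binds complexes of cyclins with CDKs, CDK2 among them. Cdkn2a and Cdkn1a are the members most used as markers of senescence, a lasting arrest that is known to build up in old adipose tissue, and Cdkn2a also encodes p19Arf, which protects p53 by blocking MDM2.

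The promoters of the Cdkn2a and Cdkn2b locus are shown because the reporter was driven by the first of them and because the transcripts of this locus cannot all be told apart here. On mm10, Cdkn2a lies on chr4:89274471-89294653 and Cdkn2b on chr4:89306299-89311039, both on the minus strand. The p19Arf transcript starts 12461 bases upstream of the p16 transcript, and 11646 bases further lies the end of Cdkn2b. The annotated 3' ends of the p16 and p19Arf transcripts differ by 70 bases, so 3' UMIs of Cdkn2a count both proteins' transcripts together. The sequences are the 250 bases before each start from RefSeq on GRCm38.p6 (mm10), written 5' to 3' on the minus strand, with capitals for the motifs found: p16 is chr4:89282193-89282442, p19Arf is chr4:89294620-89294869 and Cdkn2b is chr4:89311033-89311282.
p16 start of Cdkn2a: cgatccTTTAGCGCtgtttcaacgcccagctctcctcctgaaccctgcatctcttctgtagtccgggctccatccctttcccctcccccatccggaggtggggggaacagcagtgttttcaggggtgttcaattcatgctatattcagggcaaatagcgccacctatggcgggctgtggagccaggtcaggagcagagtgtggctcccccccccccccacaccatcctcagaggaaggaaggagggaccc
p19Arf start of Cdkn2a: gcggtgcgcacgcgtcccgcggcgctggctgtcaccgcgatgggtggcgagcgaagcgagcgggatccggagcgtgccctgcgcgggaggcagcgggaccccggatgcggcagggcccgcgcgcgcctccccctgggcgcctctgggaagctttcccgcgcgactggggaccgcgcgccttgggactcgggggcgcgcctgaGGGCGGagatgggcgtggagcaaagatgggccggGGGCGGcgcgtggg
Cdkn2b start: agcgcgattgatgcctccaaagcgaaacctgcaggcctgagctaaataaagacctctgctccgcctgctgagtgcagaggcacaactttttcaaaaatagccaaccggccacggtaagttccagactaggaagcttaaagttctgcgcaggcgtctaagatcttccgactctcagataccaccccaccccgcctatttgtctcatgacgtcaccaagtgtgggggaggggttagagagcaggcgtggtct
The p16 window held 7 CpG dinucleotides and 1 E2F motif (TTTNGCGC), 244 bases before the start, a motif found in 1.13% of 32851 promoters of this length. The p19Arf window held 40 CpG, more than all but 1.09% of promoters, and 2 GC boxes (GGGCGG), 48 and 14 bases before the start, a motif found in 32.7% of promoters. The Cdkn2b window held 12 CpG and none of the 5 motifs searched on both strands, which also included TATAAA (12.4% of promoters), TGANTCA (6.75%) and CCAAT (33.8%). The median promoter held 6 CpG. These matches describe letters and not bound factors. Cdkn2c lies on chr4:109660876-109667189, Cdkn2d on chr9:21288410-21291407, Cdkn1a on chr17:29090976-29100727, Cdkn1b on chr6:134920401-134925513 and Cdkn1c on chr7:143458339-143461050. Cdkn1c overlaps the antisense gene Gm44732, and Cdkn1a overlaps AC167363.2 on the opposite strand, so reads of these partners could enter only if strand was not kept.

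Cdkn2a, which encodes p16INK4a, was concentrated in a cluster of 743 cells led by Cxcl13, Cxcl5, Saa3, Ptgis and Clu. This cluster showed 6 raised mesothelial markers, enough for the name mesothelial-like. It was set apart from the mesothelial-like cells and called Cxcl13-led because Cxcl13 was among its top 5 genes. Summed over its cells, Cdkn2a reached 34.9 (30.4 to 39.7), 28.6 (24.8 to 32.8), 39.8 (33 to 47.6) and 40.0 (35.5 to 44.9) CPM (UMIs of the gene per 1000000 UMIs of all genes) in the 4 libraries. The level was high in Tom+ and Tom- libraries alike. The CD45- Tom- library lay below both CD45+ libraries, and the other intervals overlapped. Among the other classes the highest level was in lymphatic endothelial-like cells, which form the lymph vessels, at 11.3 and 13.7 CPM in the Tom+ libraries. The Tom- libraries held 1 such cell.

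Most other classes held little Cdkn2a. Macrophage-like cells had 6.24, 6.07, 7.25 and 5.14 CPM, with all intervals overlapping. APC-like cells, the precursors of fat cells, had 3.41 (2.08 to 5.26), 5.49 (4.74 to 6.33), 6.20 (3.54 to 10.1) and 6.61 (5.86 to 7.43) CPM. As counted, the library with the reporter was thus not higher than its Tom- partner in either sort. Under the alternative settings the log2 ratio of Tom+ to Tom- in the CD45+ pair ran from -0.17 to 0.55, so its direction was not settled. Plasma cell-like cells had 4.35, 11.6, 4.54 and 8.72 CPM, on 150, 17, 80 and 24 UMIs. The lowest levels among the 15 classes of at least 100 cells were 1.02 CPM in blood endothelial-like, 0.658 in mast-like and 0.521 in monocyte-like cells, over all libraries.

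Thinning each cell to 5000 UMIs removed unequal sampling from the share of cells in which Cdkn2a was found. It did not remove the link between the level and the depth of the cell given below. The share was 12.7% (10.3 to 15.4) in Cxcl13-led cells, 3.19% in lymphatic endothelial-like, 2.51% in plasma cell-like, 2.05% in APC-like and 1.98% in macrophage-like cells. In blood endothelial-like cells it was 0.281% (0.007 to 1.56) and in mesothelial-like cells 0.450%, at unthinned median depths of 9104.5 and 30430 UMIs against 32118 in Cxcl13-led cells. A share of this size was thus present in classes of either depth, and the Cxcl13-led share stood above it. Over all cells it was 2.48%, 2.29%, 2.71% and 2.25% in the 4 libraries, and without thinning 8.78%, 6.40%, 8.87% and 5.85%.

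The Cxcl13-led level depended on which cells were kept. Without cells whose barcode was also deposited elsewhere it was 29.0, 11.5, 35.1 and 12.4 CPM, so the Tom- libraries fell below both Tom+ libraries. With the loose barcode filter it was 17.3, 39.3, 19.1 and 34.9 CPM, the opposite order. With marked doublets kept it was 21.2, 28.2, 23.8 and 32.7 CPM. In each library and setting the cluster stayed above the APC-like and macrophage-like cells, but the order of the libraries within it did not hold. The same left-out barcodes lowered macrophage-like cells to 5.59, 1.88, 6.87 and 2.18 CPM and Tom- APC-like cells to 3.00 and 3.71 CPM.

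Clusters within a class also differed in Cdkn2a. Of the 3 macrophage-like clusters, that led by Ms4a7 and Gpnmb (1144 cells) had 7.94 CPM and that led by Arg1 and Cd5l (714 cells) had 7.42 CPM. The third, led by Arg1, F10 and Mmp12 (728 cells), had 0.227 CPM (0.047 to 0.664), on 2, 1, 0 and 0 UMIs in the 4 libraries. Cdkn2c was also lowest there, at 9.16 CPM against 27.1 and 23.3, while Cdkn1a was highest, at 287 CPM against 138 and 205. The APC-like clusters ranged from 2.56 CPM of Cdkn2a (led by Ogn and Clec3b, 2002 cells) to 9.87 (led by Col1a2 and Postn, 656 cells), with 8.82 and 3.61 between them. The clusters with the least Cdkn2a held the most Cdkn1c (106 and 154 CPM, against 60.3 and 62.8). These clusters were made from the same cells, so the contrasts between them are descriptions.

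Cdkn2b, which encodes p15INK4b and lies next to Cdkn2a, was again highest in Cxcl13-led cells. Its levels there were 19.7, 19, 24.9 and 19.7 CPM, with no library apart from the others, and without barcodes of more than 1 library 16.8, 12.4, 30.9 and 10.8 CPM. Mesothelial-like cells, which line the tissue, had 7.58, 8.42, 4.5 and 8.36 CPM, and APC-like cells had 7.15 (5.15 to 9.67), 8.25 (7.32 to 9.26), 18.2 (13.4 to 24.2) and 7.32 (6.53 to 8.18). The CD45+ Tom+ library alone stood apart in APC-like cells, on 47 UMIs in 104 cells. No UMI was found in 160 monocyte-like cells, which allows a level of up to 1.56 CPM.

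Cdkn2c, which encodes p18INK4c, followed the stromal classes and not the Cxcl13-led cluster alone. APC-like cells had 57.2, 54.5, 43.4 and 60.5 CPM, mesothelial-like cells 61.1, 54.4, 45.0 and 55.5, and Cxcl13-led cells 46.4, 57.0, 50.0 and 58.0. The 3 classes overlapped and could not be ordered. Macrophage-like cells had less, at 26.0, 18.1, 26.0 and 18.0 CPM, with both Tom+ libraries above both Tom- libraries. B cell-like and neutrophil-like cells were lowest at 8.38 and 8.60 CPM over all libraries.

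Cdkn2d, which encodes p19INK4d, was highest in neutrophil-like cells, short-lived cells that no longer divide. Their levels were 206 (129 to 312), 159 (123 to 203), 160.2 (93.3 to 257) and 210.1 (173 to 252) CPM, and all intervals overlapped. Over all libraries, monocyte-like cells had 97.0 CPM, dendritic-like cells 64.6, NK-like cells 58.8, T cell-like cells 45.4 and B cell-like cells 39.6, while Cxcl13-led cells had 8.16 and plasma cell-like cells 7.74. Macrophage-like and mast-like cells lay between, at 24.7 and 24.8 CPM. At 5000 UMIs it was found in 46.2% of the 52 neutrophil-like cells deep enough to count and in 35.5% of monocyte-like cells.

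Cdkn1a, which encodes p21 and is a direct target of p53, was highest in blood endothelial-like cells, which line the vessels. These had 649 (609 to 691), 826 (771 to 883), 529 (484 to 576) and 772 (726 to 819) CPM, and both Tom+ libraries lay below both Tom- libraries. At 5000 UMIs, 82.9% of blood endothelial-like cells held a Cdkn1a UMI, against 2.58% of plasma cell-like cells at a greater depth. Monocyte-like cells followed at 375 CPM, lymphatic endothelial-like cells at 259 and mast-like cells at 256 over all libraries. The levels of the lymphatic endothelial-like and mast-like cells did not differ beyond their intervals. Macrophage-like cells had 173, 202, 178 and 200.1 CPM, and APC-like cells 140.3, 136, 157 and 154. B cell-like and plasma cell-like cells were at the foot of the order with 16.6 and 6.69 CPM.

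Cdkn1b, which encodes p27, was highest in leukocytes. Over all libraries it reached 219 CPM in neutrophil-like, 179 in dendritic-like, 146 in B cell-like, 138 in monocyte-like, 131 in T cell-like and 108 in NK-like cells, and the intervals of the B cell-like, monocyte-like and T cell-like cells overlapped. Cxcl13-led cells had 26.4 CPM, mesothelial-like cells 29.8 and APC-like cells 46.1. Plasma cell-like cells, the end of the B cell lineage, had 23.5 CPM, below B cell-like cells in all 4 libraries (21.7, 30.8, 25.1 and 31.6 CPM against 115, 164, 126 and 168).

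Cdkn1c, which encodes p57 and is an imprinted gene, marked stroma and endothelium. APC-like cells had 85.1, 84.1, 104 and 88.5 CPM. Blood endothelial-like cells had 90.8 (76.2 to 107), 49.1 (36.6 to 64.6), 139 (117 to 164) and 53 (41.6 to 66.7) CPM, on 98, 115, 57 and 146 cells. Both Tom+ libraries stood above both Tom- libraries, but few cells carried this: 11 of 416 cells held 163 of 398 UMIs (4, 1, 5 and 1 cells by library). A small cluster led by Vwf and Aqp1 held 15, 0, 12 and 3 of the blood endothelial-like cells and 251.6 CPM of Cdkn1c, and in the other cluster, led by Cldn5, the levels were 60.4, 49.1, 63.5 and 53 CPM with overlapping intervals. Among APC-like clusters the level ranged from 60.3 CPM (led by Sfrp1) to 154 CPM (led by Pi16 and Sema3c, 173 cells). Mesothelial-like cells had 24.8 CPM over all libraries, lymphatic endothelial-like cells 21.7 and Cxcl13-led cells 11.5, and no leukocyte class exceeded 2.90. At 5000 UMIs, Cdkn1c was found in 30.1% of APC-like and 0.209% of plasma cell-like cells, at median depths of 22357 and 39578 UMIs.

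**Figure D1:**
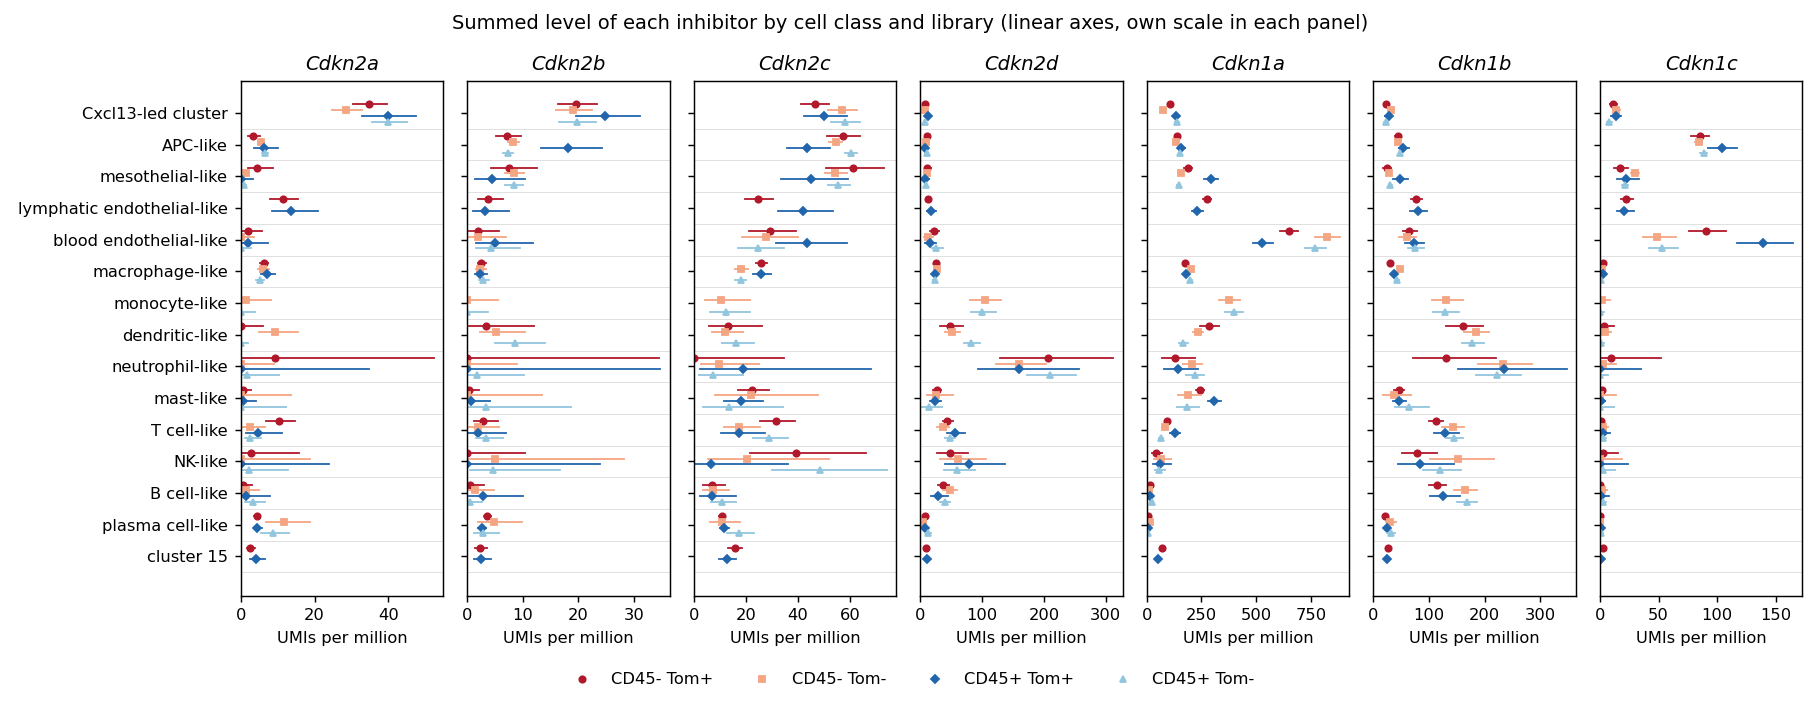
Levels of the 7 inhibitors in 15 cell classes and 4 libraries, in CPM over the cells of a class (each panel has its own linear scale). Points are libraries and lines exact Poisson 95% intervals. Cdkn2a and Cdkn2b peak in Cxcl13-led cells, Cdkn2d and Cdkn1b in neutrophil-like cells, Cdkn1a in blood endothelial-like cells at up to 826 CPM, and Cdkn1c in APC-like and blood endothelial-like cells.

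The class patterns fell into sets, given here over 15 classes that share libraries and depth, as descriptions. The patterns of Cdkn2d and Cdkn1b were most alike (Pearson's r = 0.903 of log2 levels), followed by Cdkn2c and Cdkn1c (0.718), Cdkn2a and Cdkn2b (0.705) and Cdkn2b and Cdkn2c (0.693). The least alike were Cdkn2b and Cdkn2d (-0.614). Among 9437 genes, the pattern of Cdkn2a was most like that of its neighbour Cdkn2b, then Kif26b (0.676) and Sox9 (0.670), a transcription factor. Cdkn2b was most like Sdf2 (0.882), Cdkn2c like Zc2hc1a (0.927), Cdkn2d like Fmnl1 (0.926), Cdkn1a like Klhl5 (0.929), Cdkn1b like Smchd1 (0.948) and Cdkn1c like Vstm4 (0.982), Pdgfd (0.972) and Col4a1 (0.971), a collagen of basement membranes.

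The binding partners of the inhibitors were ranked over the same classes. Of the 11 partners listed, Cdk4 was highest in Cxcl13-led cells (149 CPM over all libraries) and next in lymphatic endothelial-like cells (87.7), the first 2 classes of Cdkn2a too. Cdk6 was highest in mast-like cells (439 CPM) and Cdk2 in lymphatic endothelial-like cells (28.5). Of the D cyclins, Ccnd1 was highest in dendritic-like (160 CPM) and Ccnd2 and Ccnd3 in NK-like cells (416 and 183).

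The first comparison between libraries asked whether cells sorted for the p16 reporter held more inhibitor transcripts. Over all cells, Cdkn2a was 6.81 (6.30 to 7.35) against 7.09 (6.50 to 7.72) CPM in Tom+ and Tom- of the CD45- pair, and 7.29 (6.54 to 8.09) against 7.64 (7.08 to 8.23) in the CD45+ pair. The intervals overlapped in both pairs, with log2 ratios of -0.06 (-0.23 to 0.11) and -0.07 (-0.26 to 0.12). In sums over all cells, fewer cells of a type and less RNA per cell cannot be told apart. The ratio moved to 0.36 and 0.35 when immunoglobulin genes were left out of the totals, to 0.23 and 0.23 without plasma cell-like cells, and to 0.81 and 1.06 without barcodes of more than 1 library, where the Tom+ libraries were higher. It was -0.28 and -0.32 under the loose filter. The immunoglobulin list took 255999 against 11699 CPM of the CD45- pair and 261466 against 15566 of the CD45+ pair, and its part in the ratios was tested only by leaving it out.

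The other 6 inhibitors were lower in the Tom+ libraries over all cells as counted, though not all of them under other settings. Cdkn1c was 10.3 against 46.6 CPM and 12.2 against 45.9 CPM, a log2 ratio of -2.17 (-2.28 to -2.07) and -1.91 (-2.03 to -1.78). Cdkn2c was 23.7 against 44.2 and 22.4 against 46.1 CPM (log2 -0.90 and -1.04), and Cdkn1a 99.9 against 152 and 103 against 161 CPM (-0.60 and -0.65). Both Cdkn1c and Cdkn2c were well above their all-cell level in APC-like cells, which made up less of the Tom+ libraries. Cdkn2b was 4.51 against 7.70 and 5.16 against 7.06 CPM (-0.77 and -0.45), Cdkn1b 34.8 against 50.7 and 38.8 against 53.2 CPM (-0.54 and -0.45), and Cdkn2d 14.9 against 16.1 and 14.8 against 18.5 CPM (-0.12 and -0.32). Without plasma cell-like cells, Cdkn1a moved to -0.02 and -0.06, Cdkn1c to -1.57 and -1.31, and Cdkn2d to 0.22 and 0.02. Cdkn2d was also higher in Tom+ without immunoglobulin genes (0.30 and 0.10), and in the CD45- pair when thinned (0.12). Without barcodes of more than 1 library, Cdkn2b moved to -0.14 and 0.05. Of the 7 members, 1 in the CD45- pair and 2 in the CD45+ pair passed 2-fold, beside 23.2% and 21.4% of all genes of at least 5 CPM, and the median of all genes was itself -0.47 in both pairs.

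Giving both libraries of a pair 1 mix of classes removed most of these differences. Cdkn1c then had log2 ratios of -0.01 and 0.29, Cdkn2c 0.11 and -0.29, Cdkn1a -0.02 and 0.11, Cdkn1b -0.34 and 0.02, Cdkn2d 0.09 and -0.13, Cdkn2b -0.14 and 0.66, and Cdkn2a -0.23 and -0.08. Each ratio above 0 here had been below 0 as counted. None passed 2-fold. The classes present in both libraries of a pair covered 87.8%, 98.2%, 81.9% and 95.9% of the cells.

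**Figure D2:**
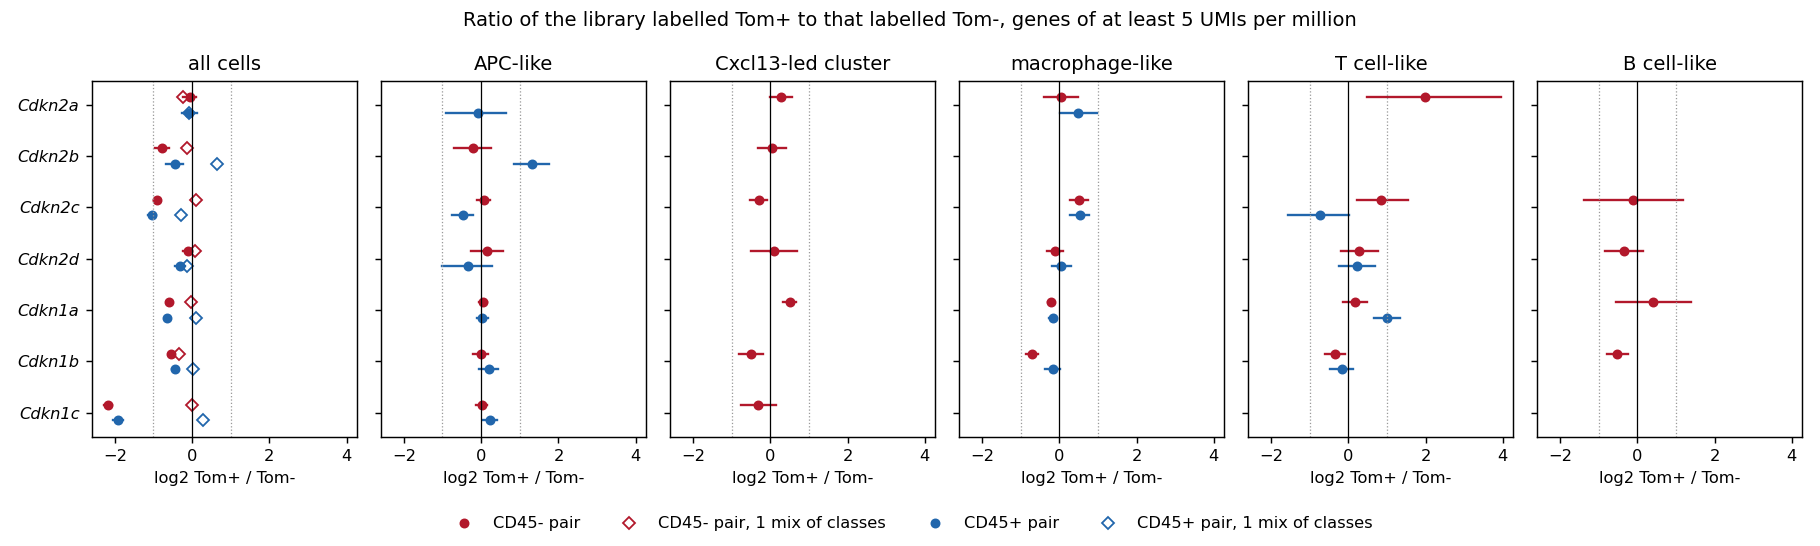
Log2 ratio of Tom+ to Tom- for the inhibitors of at least 5 CPM, over all cells and in 5 classes, with 95% counting intervals (red, CD45- pair; blue, CD45+ pair; dotted lines, 2-fold). Open diamonds give the ratios at 1 mix of classes. Over all cells Cdkn1c lies at -2.17 and -1.91 but at -0.01 and 0.29 at 1 mix, and in APC-like cells Cdkn2b of the CD45+ pair (1.32) stands past 2-fold.

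Within APC-like cells most inhibitors were at like levels in Tom+ and Tom-. In the CD45- pair (263 against 1524 cells), none of 6 inhibitors of at least 5 CPM passed 2-fold, beside 1.52% of all genes, and Cdkn1a (log2 0.05, -0.06 to 0.15), Cdkn1b (-0.01, -0.20 to 0.18) and Cdkn1c (0.02, -0.12 to 0.16) lay close to 0. Cdkn2a, below 5 CPM, was at -0.69 (-1.43 to -0.02), lower in Tom+ as counted. Few cells weighed on this, since 9 of the Tom- and 0 of the Tom+ cells held at least 5 Cdkn2a UMIs. The Tom- level also fell without barcodes of more than 1 library, as given above, so this direction was not settled. In the CD45+ pair (104 against 1716 cells), 1 of 7 passed 2-fold, beside 1.54% of all genes: Cdkn2b, at 18.2 against 7.32 CPM, was at 1.32 (0.84 to 1.76), and stayed between 1.05 and 1.63 under every alternative setting run. Few cells carried part of this: 3 of the 104 Tom+ cells (2.88%) held at least 5 Cdkn2b UMIs each, against 0.408% of the Tom- cells. Cdkn2b was at -0.21 (-0.71 to 0.27) in the CD45- pair, or 0.44 without barcodes of more than 1 library, and the difference between the pairs was -1.52 (-2.17 to -0.88). Cdkn2c was lower in Tom+ of the CD45+ pair, at -0.48, but not of the CD45- pair (0.07), a difference of 0.55 (0.23 to 0.87). The Tom+ APC-like cells also held more leukocyte transcripts, with 382 against 149 CPM and 192 against 137 CPM summed over 10 genes, of which 8 and 2 passed 2-fold, and 27484 against 1429 and 31031 against 1709 CPM of immunoglobulin. The part of these transcripts in the inhibitor levels was not tested.

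Partners and targets of the inhibitors were compared in the same APC-like cells. None of the 9 and 8 G1 partners tested in the CD45- and CD45+ pairs passed 2-fold, nor did any of 12 genes in each pair that act on the inhibitors' turnover or control. Of 15 p53 targets tested in each pair, 1 was higher: Trp53inp1, a p53 target, at 73.4 against 34.7 CPM and 75.2 against 35.4 CPM. Cdkn1a, the p53 target among the members, did not move with it, at 0.05 (-0.06 to 0.15) in the CD45- pair. Trp53inp1 was not raised in APC-like cells alone. In Tom+ macrophage-like cells it was 57.9 against 23.9 and 49.8 against 19.8 CPM. Over all cells it was 262 against 57.3 and 281 against 61.1 CPM, where level and the mix of classes cannot be told apart. Tom+ cells of both classes also held more immunoglobulin transcripts, and the part of plasma cell RNA in the Trp53inp1 values was not tested.

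In macrophage-like cells 0 of 5 inhibitors passed 2-fold in either pair, beside 2.48% and 2.45% of all genes. The 3 clusters of this class were unequally split: the one led by Arg1, F10 and Mmp12, with the least Cdkn2c and the most Cdkn1a, held 105 of 810 and 62 of 408 Tom+ cells but 257 of 601 and 304 of 767 Tom- cells. Stromal genes summed to 395 against 784 and 361 against 868 CPM (8 of 9 past 2-fold lower in each pair), and immunoglobulin to 28160 against 2529 and 27527 against 1743 CPM. Their part in the inhibitor levels was not tested. Cdkn2c was higher in Tom+, at 26.0 against 18.1 and 26.0 against 18.0 CPM (log2 0.52, 0.29 to 0.75, and 0.53, 0.28 to 0.78), but at 0.14 and 0.12 with marked doublets kept and 0.19 and 0.16 under the loose filter. Cdkn1a was lower in Tom+ at -0.23 (-0.30 to -0.15) and -0.17 (-0.26 to -0.09). Within the cluster led by Arg1, F10 and Mmp12, Cdkn1a was 289 against 278 and 330 against 285 CPM, and within that led by Arg1 and Cd5l 217 against 173 and 221 against 202, so Tom+ was not lower there. In the cluster led by Ms4a7 and Gpnmb it was 140.5 against 146 and 139 against 127 CPM. Cdkn2c in that last cluster was 28.1 against 27.9 and 31.6 against 20.1 CPM, in the Arg1 and Cd5l cluster 28.2 against 17.1 and 18 against 24.6, and in the third 6.82 against 8.33 and 8.02 against 10.9, with no common direction. Cdkn1b was lower in the CD45- pair, at 30.0 against 48.8 CPM (-0.70, -0.87 to -0.54), and at -0.17 (-0.36 to 0.02) in the CD45+ pair, with a difference between the pairs of -0.53 (-0.78 to -0.29). Cdkn2a was at 0.04 and 0.50 (0.01 to 0.98), and at 1.57 and 1.65 without barcodes of more than 1 library. Proliferation genes moved with Cdkn2c: 11 and 6 of 20 tested were past 2-fold higher in Tom+, and their sum was 632 against 393 and 683 against 464 CPM.

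In T cell-like cells, Cdkn2a was 10.3 against 2.59 CPM in the CD45- pair, on 29 and 4 UMIs, a log2 ratio of 1.99 (0.48 to 3.96), and 1.18 when thinned. It was the only member of 5 past 2-fold, beside 8.37% of all genes. In the CD45+ pair it rested on 5 and 7 UMIs. Cdkn1a was the only 1 of 4 past 2-fold in that pair, at 128 against 63.3 CPM (1.01, 0.67 to 1.35), beside 9.67% of all genes, and at 0.18 in the CD45- pair, with a difference of -0.83 (-1.28 to -0.38). Cdkn2c was at 0.85 and -0.73, a difference of 1.58 (0.62 to 2.55), but at 0.18 in the CD45- pair with marked doublets kept. Cdkn1a of the CD45- pair was at -0.15 under the loose filter. Different clusters held the T cell-like cells of Tom+ and Tom- libraries, so these values compare clusters as well as sorts. The T cell-like cells of Tom+ libraries also held less of the stromal genes (256 against 990 and 221 against 773 CPM, 10 of 10 and 9 of 9 past 2-fold lower) and more immunoglobulin (67807 against 4585 and 59472 against 3499 CPM), and the part of these was not tested.

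In Cxcl13-led cells of the CD45- pair, 0 of 7 inhibitors passed 2-fold, beside 2.1% of all genes. Cdkn1a was higher in Tom+, at 107 against 75.3 CPM (0.50, 0.34 to 0.67), but at -0.37 under the loose filter. Cdkn1b was lower, at 22.8 against 32.2 CPM (-0.50, -0.81 to -0.19). Cdkn2a was at 0.29 (0.01 to 0.57), but at -1.19 under the loose filter, -0.41 with marked doublets kept and 1.33 without barcodes of more than 1 library, so its direction was not settled. The Tom+ cells of this cluster held more immunoglobulin (64228 against 1185 CPM) and leukocyte genes (346 against 227 CPM, 4 of 10 past 2-fold higher), whose part was not tested. Among B cell-like cells of the same pair, 0 of 4 passed 2-fold, beside 8.43% of all genes, and Cdkn1b was 115 against 164 CPM (-0.52, -0.79 to -0.25). Different clusters held these cells too: of 1 cluster 201 Tom+ and 3 Tom- cells, and of the other 0 and 206.

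Cells of a Tom+ library were also compared by their tdTomato UMIs. At 5000 UMIs, Cdkn2a was found in 2.45%, 1.94% and 2.96% of CD45- Tom+ cells with 0, 1 to 3 and over 3 tdTomato UMIs, and in 2.55%, 2.36% and 3.08% of CD45+ Tom+ cells. All of these intervals overlapped within a library.

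The second question was whether inhibitors share cells. In 12355 cells thinned to 5000 UMIs, 35.4% held none of the 7 inhibitors, 39.9% held 1, 19.3% held 2, 4.73% held 3, 0.607% held 4, and 3 cells held 5. None held 6 or 7. Cells with none made up 45.0% and 45.1% of the Tom+ and 29.7% and 27.4% of the Tom- libraries. For each of 21 pairs, cells with both genes were then set against an expected number. This was taken from the share of the second gene in the cells without the first, within each class and library.

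Cdkn2a and Cdkn2b shared cells most. They were found together in 28 cells, against 9.32 expected, a ratio of 3.00 (2 to 4.34). Cdkn2b was detected in 9.49% of cells with Cdkn2a and in 2.11% of the others. The ratio was 2.73 with clusters in place of classes, 2.85 at 2000 and 2.37 at 10000 UMIs, 2.01 under the loose filter and 3.72 without barcodes of more than 1 library. The interval included 1 only at 2000 UMIs (0.93 to 6.65), on 5 cells. The unthinned depth of the cell was not among the strata. Both genes rose with it over all cells, as given below, and its part in the sharing was not tested.

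A few other pairs departed from the expected number by less. Cdkn2a and Cdkn1a were together in 122 cells against 92.8 expected (1.31, 1.09 to 1.57), Cdkn2c and Cdkn2d in 149 against 122 (1.22, 1.03 to 1.43) and Cdkn1a and Cdkn1c in 519 against 445 (1.17, 1.07 to 1.27). Cdkn2a and Cdkn1c were together less often, in 18 cells against 28.9 expected (0.62, 0.37 to 0.99), but with clusters in place of classes the ratio was 0.71 (0.42 to 1.12). The intervals of the other 16 pairs included 1, and the 21 intervals were not adjusted for their number. Without barcodes of more than 1 library, only 1 pair kept an interval above 1.

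**Figure D3:**
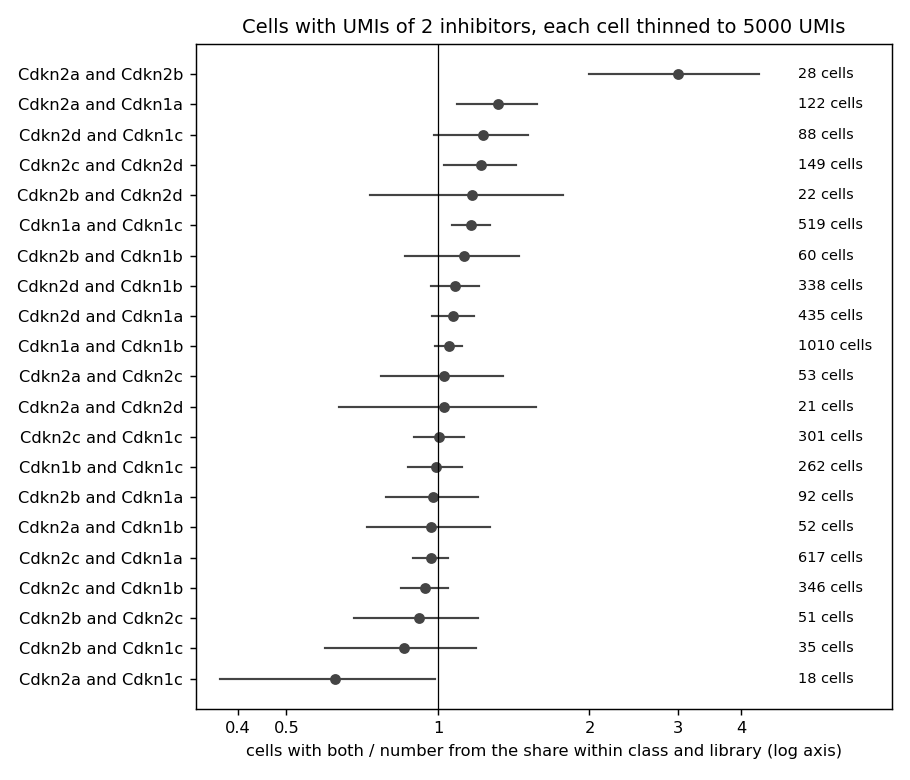
Cells holding both inhibitors of a pair over the number expected within class and library (log axis), for 21 pairs at 5000 UMIs per cell, with 95% intervals and cell numbers. Cdkn2a with Cdkn2b stands highest at 3.00 (2 to 4.34), and Cdkn2a with Cdkn1c lowest at 0.62.

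Cdkn2a transcripts were unevenly spread among cells. The 95 cells with at least 5 Cdkn2a UMIs, of 13878, held 867 of 2221 UMIs, or 39.0%. They made up 0.669%, 0.626%, 0.727% and 0.729% of the 4 libraries, with overlapping intervals. For Cdkn2b, 35 such cells held 12.9% of the UMIs. Of the 95 cells, 43 were Cxcl13-led, 21 APC-like, 19 macrophage-like and 12 of other classes, and the 21 APC-like cells came from Tom- libraries (9 and 12), which held 1524 and 1716 of all 3607 APC-like cells. A tdTomato UMI was present in 26 of 26, 11 of 23, 13 of 14 and 12 of 32 of them. Cdkn2b was found in 53 of the 95, Cdkn1a in 84, Cdkn2c in 65 and Cdkn1c in 16. These cells were deep, with a median of 42228 UMIs, and these counts are unthinned. Over all 13878 cells, 1972 held 1 Cdkn1a UMI, 2594 held 2 to 4 and 2760 held at least 5. For Cdkn2c these numbers were 2776, 2196 and 367, and for Cdkn2b 854, 329 and 35. No share was taken in other cells of like depth, so these detections cannot be read as a trait of the 95 cells.

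Depth of the cell went with the level of Cdkn2a. In cells under 10000, of 10000 to 30000, and of 30000 or more UMIs it was 3.02, 3.91 and 10.2 CPM over all cells, 1.16, 3.58 and 9.49 CPM in APC-like, and 2.59, 3.49 and 10.1 CPM in macrophage-like cells. Plasma cell-like cells (5.00, 2.72 and 5.09 CPM) and mesothelial-like cells (0, 1.16 and 1.42 CPM) did not rise in this way. Cxcl13-led cells had 60.0 CPM in the 79 shallowest, 11.8 in the middle and 42.2 in the deepest. Cdkn2b rose from 2.67 through 4.45 to 7.88 CPM over all cells. Cells whose barcode was in another library too had 9.34, 9.60, 9.56 and 12.2 CPM of Cdkn2a, against 5.52, 3.14, 6.42 and 3.08 CPM in the rest, and the part of depth and of these barcodes could not be told apart.

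**Figure D4:**
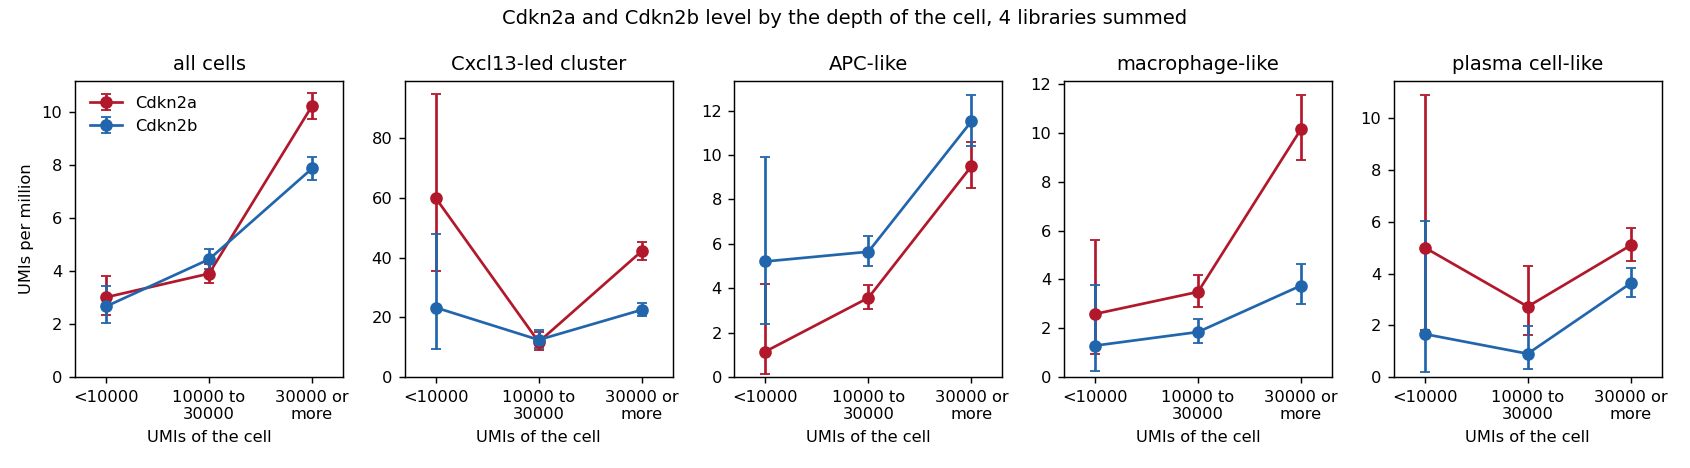
Cdkn2a and Cdkn2b in CPM by depth of the cell (under 10000, 10000 to 30000, and 30000 or more UMIs), over all cells and in classes with at least 20 cells per bin, with exact Poisson 95% intervals. Cdkn2a rises from 3.02 to 10.2 CPM over all cells and from 1.16 to 9.49 CPM in APC-like cells.

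The third question was how the inhibitors went with division. Cells with at least 3 of 14 mitosis and replication genes detected (1336 cells) were set against cells with none (6541), leaving aside 6001 with 1 or 2. Such cells made up 14.6%, 6.12%, 13.1% and 6.63% of the 4 libraries. The median depth was 36521.5 against 12533 UMIs, so counts are also given for cells of at least 20000 UMIs. Depth still differed among those, with medians of 35210 against 26183 UMIs in APC-like and 34325 against 25081 in macrophage-like cells. The deep cells thus narrowed the gap in depth but did not remove it. Among all genes of at least 5 CPM, the interval of this ratio lay above 0 for 18.1% in APC-like, 17.6% in Cxcl13-led, 14.7% in T cell-like, 9.67% in cluster 15, 14.5% in dendritic-like, 20.7% in lymphatic endothelial-like, 31.4% in macrophage-like, 12.9% in mast-like, 14% in mesothelial-like and 66.8% in plasma cell-like cells. It lay below 0 for 16.5%, 18.7%, 7.46%, 9.52%, 13.5%, 10.0%, 30.1%, 6.89%, 12.7% and 3.74% of genes in the same order. Cluster 15 is an unnamed cluster of 278 cells led by immunoglobulin genes and Ms4a7.

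Cdkn2a, an inhibitor, was higher in the cells with division genes in 7 of 8 classes with at least 10 UMIs, with the interval above 0 in 6. In APC-like cells it was 21.2 against 4.10 CPM (log2 2.37, 1.96 to 2.77), and in macrophage-like cells 11.6 against 2.91 CPM (2, 1.5 to 2.52). Past 2-fold higher were 1.29% and 3.61% of all genes in these classes. In Cxcl13-led cells, where Cdkn2a was high throughout, it was 34.7 against 26.5 CPM (0.39, 0.06 to 0.73). In deep cells it was higher in 5 of 6 classes, in 4 with the interval above 0. Without barcodes of more than 1 library it was higher in 5 of 5, but the interval was above 0 in 2 and APC-like cells fell to 8.11 against 3.25 CPM (1.32, -0.05 to 2.44). At 5000 UMIs the shares overlapped in all 10 classes, with 5.31% against 1.73% in APC-like cells. By library, the macrophage-like ratio ran from 0.17 to 4.63.

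Cdkn2c and Cdkn2d were also higher in cells with division genes in most classes. For Cdkn2c this was 8 of 10 classes, with the interval above 0 in 5 and below 0 in 1. Over all cells Cdkn2c did not differ, at 36.6 against 36.3 CPM. Cdkn2c in macrophage-like cells was 43.1 against 13 CPM (1.73, 1.49 to 1.97), past 2-fold in each library (1.66, 1.51, 2.28 and 1.45), 1.90 in deep cells and 1.75 without barcodes of more than 1 library. At 5000 UMIs it was found in 14.5% against 7.51% of these cells, and in the other 9 classes the intervals of the shares overlapped. The same direction held in lymphatic endothelial-like (92.6 against 17.9 CPM) and T cell-like cells (69.2 against 22.2), on 20 and 26 cells with division genes. Past 2-fold higher were 12.2% and 11.1% of all genes in these classes. In APC-like cells Cdkn2c was 49.8 against 59.4 CPM (-0.25, -0.47 to -0.04). Cdkn2d was higher in 9 of 10 classes, in 7 with the interval above 0. It was also higher in all 17 combinations of class and library, in 9 with the interval above 0. Without barcodes of more than 1 library it was higher in 5 of 8 classes, with the interval above 0 in 5. It was 92.1 against 21.4 CPM in mast-like cells (2.11), on 31 cells with division genes, and 15.6 against 4.24 CPM in plasma cell-like cells (1.87). Past 2-fold higher were 11.5% and 9.18% of all genes in these 2 classes. At 5000 UMIs the shares of Cdkn2d were apart in these 2 classes and overlapped in the other 8.

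The ratio of Cdkn2c between Tom+ and Tom- macrophage-like cells was then taken within cells of like division genes. Of these cells, 185 of 810, 67 of 601, 86 of 408 and 113 of 767 had at least 3 division genes. Among those with none, Cdkn2c was 14.2 against 13.2 CPM in the CD45- pair and 10.9 against 12.9 in the CD45+ pair, with Tom+ given first. Among those with at least 3, it was 44.7 against 37.6 and 52.6 against 35.2 CPM.

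Cdkn2b had no common direction. It was 13.5 against 5.59 CPM in APC-like cells (1.27, 0.80 to 1.72) and 4.16 against 1.87 in macrophage-like cells (1.16), but 3.83 against 9.10 in mesothelial-like cells (-1.25, -2.36 to -0.30). Cdkn2b and Cdkn2a thus took opposite directions in mesothelial-like cells, where Cdkn2a was 3.83 against 0.439 CPM on 10 and 4 UMIs.

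Of the Cip/Kip members, Cdkn1a was lower in cells with division genes in most classes. Its interval lay below 0 in 6 of 10 classes, in 5 of 7 among deep cells, and in 3 of 8 without barcodes of more than 1 library. It was 135 against 368 CPM in lymphatic endothelial-like cells (-1.45), 120.0 against 284 in dendritic-like cells (-1.24), 78.0 against 144 in Cxcl13-led cells (-0.89) and 154 against 219 in macrophage-like cells (-0.51). Mast-like cells went the other way, at 379 against 245.5 CPM (0.63, 0.36 to 0.89). Cdkn1b was lower in macrophage-like cells, at 28.1 against 47.1 CPM (-0.74, -0.92 to -0.56), and its interval was not above 0 in any of 10 classes. Cdkn1c was lower in Cxcl13-led cells, at 7.73 against 15.8 CPM (-1.03, -1.59 to -0.48), and in lymphatic endothelial-like cells, at 9.42 against 30.4 CPM on 6 and 51 UMIs, but higher in macrophage-like cells, at 2.75 against 1.18 CPM (1.23, 0.38 to 2.14) on 41 and 17 UMIs. It was higher in 4 of 8 classes. At 5000 UMIs, macrophage-like cells held Cdkn1a in 41.9% against 56.6% and Cdkn1b in 14% against 20.8%, with intervals apart. In the other 9 classes the shares of Cdkn1a and of Cdkn1b overlapped, and those of Cdkn1c overlapped in all 10.

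**Figure D5:**
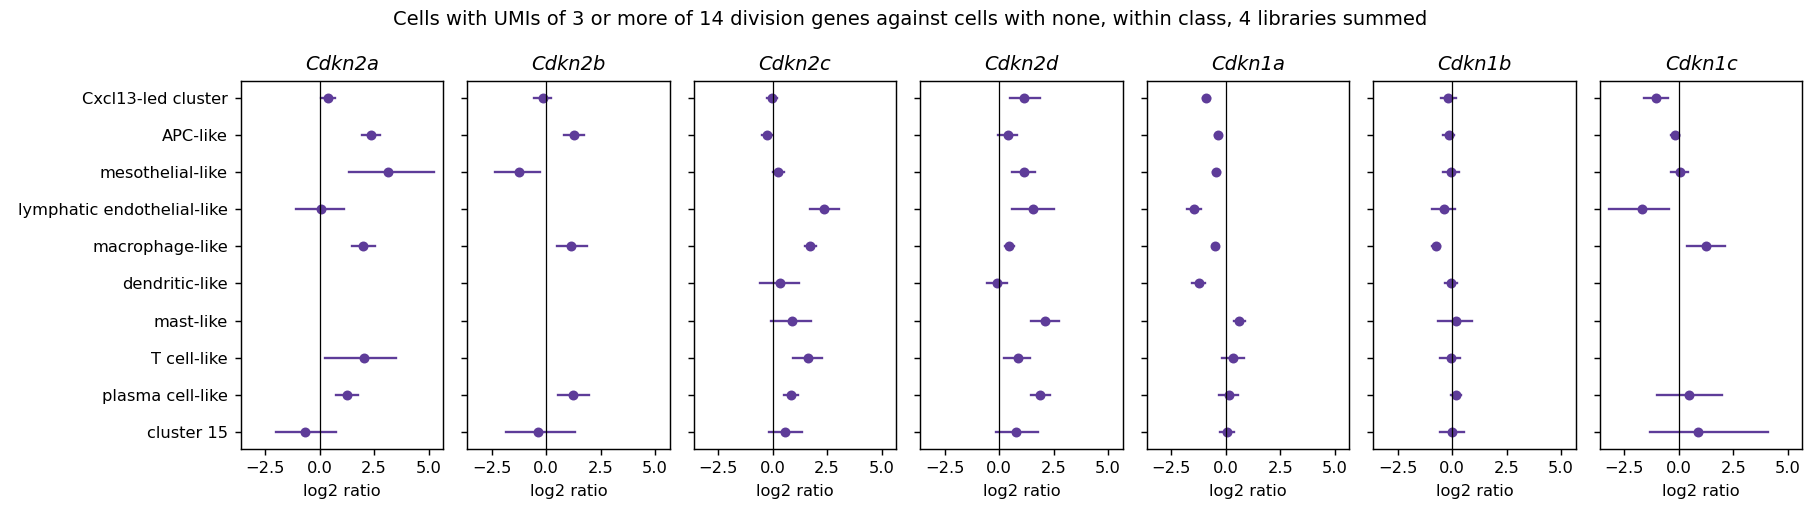
Log2 ratio of each inhibitor in cells with at least 3 of 14 division genes to cells with none, by class over the 4 libraries summed, with 95% counting intervals. Cdkn2a (2.37 in APC-like and 2 in macrophage-like cells) and Cdkn2d lie mostly above 0, and Cdkn1a mostly below 0, down to -1.45 in lymphatic endothelial-like cells.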

How the data were processed

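The authors deposited 1 matrix of UMI counts per library, with gene and barcode lists. The counts were deposited raw, with no normalization, and the submitters' processing notes name Cell Ranger 3.0.2 and mm10. The study's filter was applied: a barcode stayed when more than 1000 but fewer than 7000 genes were detected and mitochondrial genes took less than 8% of its UMIs. Scrublet marked doublets at 0.8% per 1000 barcodes, and these were left out, which left 13878 cells. Cells were normalised to 10000 UMIs and clustered with scanpy 1.11.5 (2000 variable genes, 30 components, 15 neighbours, leidenalg 0.10.2 at resolution 1, seed 1), giving 29 clusters. A cluster was named X-like from at least 3 markers of at least 20 CPM and 4-fold over the median of the clusters. The name was withheld where an unrelated class matched nearly as well, where top genes belonged to another class, or where a shallow cluster had no marker on top. A cluster with Cxcl13 among its top 5 genes was called Cxcl13-led whatever its markers. Names may differ from the study's.

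Levels are UMIs summed over the cells of a class per library total (CPM), with exact Poisson intervals. Shares have Clopper-Pearson intervals and were taken after thinning each cell to 5000 UMIs, leaving shallower cells out. Ratios have conditional exact intervals and were given in classes of at least 100 cells in both libraries. Differences between ratios have normal intervals on the log2 scale. Groups came from the sample labels. With 1 library per group, no p-value was computed. The scripts were tested on simulated data.

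The members, lists and marker genes were chosen with earlier results of these data known. Named genes were the members, the genes of a list past 2-fold and the genes most like a member over classes of cells. The alternatives were a loose filter (500 genes, 20% mitochondrial), doublets kept, cells weighing the same, thinned cells, resolution 2, 4000 variable genes, 2000 or 10000 UMIs, 1 mix of classes, barcodes of more than 1 library left out and a mean of 20 CPM. Chosen after seeing the data were clusters as strata, immunoglobulin genes or plasma cell-like cells left out, and, for division genes, cells of at least 20000 UMIs, thinned shares and shared barcodes left out. Python 3.11.15, numpy 2.4.6, scipy 1.17.1 and pandas 2.3.3 were used. Comparisons of the study's other assays were not analysed here.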

Additional observations from a re-analysis of the deposited data

How the results depend on the processing

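Most ratios over all cells moved when both libraries of a pair were given 1 mix of classes, and the cause was not tested. At 1 mix of classes, several ratios changed sign and the others stayed below 0. Among those that changed were Cdkn1c (0.29) and Cdkn2b (0.66) of the CD45+ pair and Cdkn2c (0.11) of the CD45- pair. At this mix 0 inhibitors passed 2-fold in either pair. In the CD45+ pair over all cells, 1 inhibitor in place of 2 passed 2-fold under the loose filter, with every cell weighing the same, without barcodes of more than 1 library, without immunoglobulin genes and without plasma cell-like cells. In Cxcl13-led cells of the CD45- pair, 1 in place of 0 passed under the loose filter and when thinned, and 2 without barcodes of more than 1 library. In macrophage-like cells of the CD45+ pair, 1 in place of 0 passed when thinned. In T cell-like cells of the CD45+ pair, 0 in place of 1 passed under the loose filter, when thinned and with 4000 variable genes. Of the inhibitor pairs sharing cells, 2 in place of 4 had an interval above 1 at 2000 UMIs and 1 without barcodes of more than 1 library. The 1 pair with an interval below 1 became 0 at 2000 and 10000 UMIs, under the loose filter, with doublets kept, without barcodes of more than 1 library and with clusters as strata. Cdkn1a with Cdkn1c fell to 0.996 of the expected number at 2000 UMIs. The cause was not tested. Leaving out the shared barcodes moved 22 of 57 log2 ratios. At 1 mix of classes 12 of 14 moved besides 1 counted as reversed, and without plasma cell-like cells 13 of 14, both run over all cells alone. No paired analysis was possible because each group is 1 library, no result comes from a test, and the CD45- and CD45+ pairs are different sorts and not replicates. Depth limits Cdkn2a and Cdkn2b most, since both were found in few cells at 5000 UMIs (295 and 283 of 12355).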
